A study of Mus musculus with 10 samples.

Results

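Gene expression was compared between 4 Tdg-/- and 3 Tdg+/+ mouse embryonic stem cell (ESC) lines. These 7 lines, chosen by their labelled genotype, are part of a series of 10, and the other 3 are Tdg+/- lines whose values are given beside the results where they help. The Tdg-/- lines (KO02, KO03, KO04 and KO05) carry no wild-type Tdg allele, the Tdg+/- lines (HET11, HET12 and HET13) carry 1, and the Tdg+/+ lines (WT21, WT22 and WT23) carry 2. All lines are male, are labelled C57BL/6, and came from timed matings of Tdg+/- mice. They were derived on feeder cells, grown without feeders before RNA was taken, and kept in medium with LIF and 2 kinase inhibitors (2i). Each line is 1 library of total RNA without ribosomal RNA. Which mating a line came from is not labelled, so p-values here rest on the spread among lines, which includes any difference between litters.

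TDG is a DNA glycosylase. It cuts out thymine mispaired with guanine, and also 5-formylcytosine and 5-carboxylcytosine, which TET enzymes make from methylated cytosine. Base excision repair then restores an unmethylated cytosine, so TDG acts in active DNA demethylation. It also binds to nuclear receptors and to the acetyltransferases CBP and p300, and mouse embryos without it die during gestation. ESCs survive without it, which is why its loss can be studied in such lines.

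The lines differed in more than genotype, and KO02 stood apart. On the first principal component of log2 expression (38.3% of the variance of the 7 lines) KO03, KO04 and KO05 lay at 42.2, 21.6 and 35.9 and KO02 at -22, against -41.4, -15.4 and -21.1 for WT21, WT22 and WT23. KO02 thus lay among the Tdg+/+ lines on this axis. WT21 stood apart on the second component (23.8%), at 40.1 against -23.2 and -39.7 for WT22 and WT23. The median correlation of a line with the others of its genotype was 0.9738 for KO02 and 0.9854 to 0.9862 for KO03 to KO05, and it was 0.969 for WT21, 0.978 for WT22 and 0.9756 for WT23. In WT21 the genes of chromosome 16 with a mean of at least 5 CPM (reads scaled to library size) lay a median log2 difference of 0.34 above the middle of the 7 lines, whereas the other 6 lines lay between -0.03 and 0.00. In KO05 the genes of chromosome 11 lay 0.14 above. Results are therefore also given without KO02 or WT21.

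**Figure D1:**
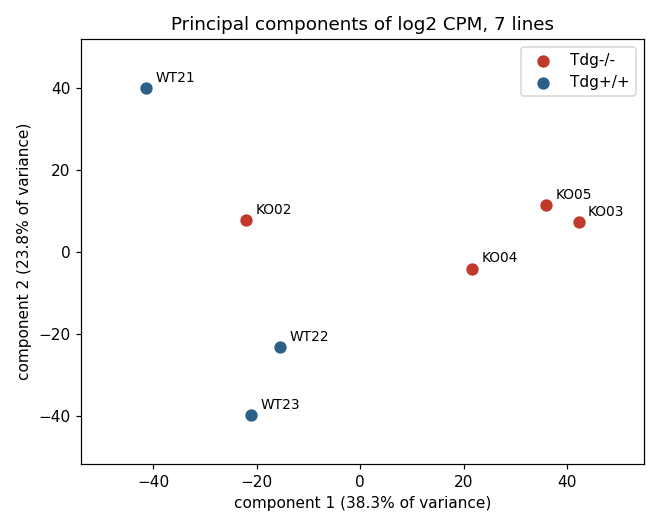
First and second principal component of log2 CPM in the 4 Tdg-/- lines (red) and the 3 Tdg+/+ lines (blue), 1 point per line. KO02 lies at -22 on the first component, beside the Tdg+/+ lines, while the other Tdg-/- lines lie between 21.6 and 42.2.

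All 7 lines expressed the defining genes of ESCs. The 6 markers Pou5f1, Sox2, Nanog, Esrrb, Zfp42 and Tfcp2l1 summed to 3339 to 3738 CPM in Tdg-/- lines and to 3219.6 to 3497 CPM in Tdg+/+ lines. Markers of other cell types summed to far lower levels, though not all were near 0. Those of feeder fibroblasts, led by the collagen gene Col3a1, summed to 13.2 to 35.2 CPM in Tdg-/- lines and 23.5 to 45.7 CPM in Tdg+/+ lines. Elf5 of the trophoblast had 0 to 2 reads, Gata6 of the primitive endoderm 0 to 4 and Mixl1 of the mesendoderm 2 to 9 reads in the 7 lines.

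Tdg fell in the Tdg-/- lines to 10.3% of its mean in Tdg+/+ lines. It stood at 7.75, 10.6, 10.3 and 8.49 CPM in KO02 to KO05, at 40.3, 41.9 and 45.9 CPM in HET11 to HET13, and at 86.4, 91.1 and 93.1 CPM in WT21 to WT23. The 3 genotypes did not overlap, and each line matched its label. The means were 9.27 ± 1.37 CPM (SD, n = 4) in Tdg-/- and 90.2 ± 3.44 CPM (SD, n = 3) in Tdg+/+ lines, a log2 fold change of -3.26 ± 0.142 SE (edgeR, adjusted p = 9.98e-06). With the replicate number as a block the adjusted p was 0.00171. The reads that remained were spread over transcripts in another way. The main coding transcript of Tdg held 26.4% to 44.7% of the Tdg reads in Tdg-/- lines and 58.6% to 69.3% in Tdg+/+ lines. The short retained-intron transcript Tdg-207 held 23.6% to 30.6% in Tdg-/- lines and 8.89% to 10.1% in Tdg+/+ lines. The transcript Tdg-210 had at most 0.315% in a Tdg-/- line, against 2.57% to 6.59% in Tdg+/+ lines.

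Both processed pseudogenes of Tdg, copies that arose by retrotransposition, rose in the Tdg-/- lines. They are shown because reads of so similar copies can be divided between gene and pseudogene. Over the 1191 coding bases of Tdg, Tdg-ps on chromosome 15 was identical at 98.9% of 1188 aligned bases and Tdg-ps2 on chromosome 10 at 99.2% of 1191. A stretch where both differ is given in the GENCODE transcripts of GRCm38, from base 1042 to 1101 of the Tdg coding sequence, with capitals at the bases that differ from Tdg:
Tdg: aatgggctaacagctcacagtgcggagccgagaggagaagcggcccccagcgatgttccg
Tdg-ps: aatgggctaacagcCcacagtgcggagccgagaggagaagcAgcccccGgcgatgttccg
Tdg-ps2: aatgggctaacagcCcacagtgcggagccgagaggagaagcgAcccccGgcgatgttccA

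Tdg-ps2 had 72, 129, 96 and 80 reads in KO02 to KO05, 60, 78 and 67 reads in HET11 to HET13, and 7, 8 and 2 reads in WT21 to WT23 (log2 fold change 4.02 ± 0.396 SE, adjusted p = 0.00752 with edgeR). Tdg-ps had 57, 53, 39 and 33 reads in KO02 to KO05, 15, 22 and 23 reads in HET11 to HET13, and 1, 5 and 0 reads in WT21 to WT23 (log2 fold change 4.43 ± 0.619 SE, adjusted p = 0.0474 with edgeR). Both pseudogenes were thus near 0 in every Tdg+/+ line, and neither group overlapped the other. With the replicate block neither passed (adjusted p = 0.0535 and 0.19 with edgeR). Tdg and the pseudogenes together stood at 13.3 ± 1.89 CPM in Tdg-/- lines and 90.4 ± 3.38 CPM in Tdg+/+ lines (SD, n = 4 and 3).

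Few other genes passed the test. Of 13926 genes tested, 10 passed an adjusted p under 0.05 (0.0718%), 5 higher (0.0359%) and 5 lower (0.0359%). Before adjustment, 2217 genes (15.9%) had p under 0.05 and are called nominally higher (1272, 9.13%) or nominally lower (945, 6.79%). DESeq2 called 98 genes (0.704%), 52 higher (0.373%) and 46 lower (0.330%), and edgeR with 3 surrogate variables called 24 (0.172%), 15 higher (0.108%) and 9 lower (0.0646%). For 1365 genes (9.80%) the lines of the 2 genotypes did not overlap, 623 higher (4.47%) and 742 lower (5.33%). With the replicate number as a block 5 genes were called (0.0359%), 0 higher and 5 lower, and 2 of them, Tdg and Gm3055, were among the 10. The other 3 were pseudogenes of ribosomal proteins, singled out here after their values were seen, with no read in any Tdg-/- line and reads in only 1 or 2 Tdg+/+ lines. Rps6-ps4, for example, had 18777 reads in WT23 and 0 in every other line.

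Leaving out KO02 changed this count more than any other line did. Without it, 1623 of 13897 genes were higher (11.7%) and 1454 lower (10.5%), and all 10 genes named above stayed called. At the 3077 genes called without KO02, its own level lay within the range of the Tdg+/+ lines for 1612 (52.4%) and within that of the other Tdg-/- lines for 70 (2.27%). This is a description, since these genes were called on the other lines. Without WT21, 14 genes were called (0.101%), 5 higher (0.0362%) and 9 lower (0.0652%), and 7.84% of genes were nominally higher and 5.82% nominally lower. Without both KO02 and WT21, a fit added after the data were seen, 2366 were higher (17.2%) and 2220 lower (16.1%). Without any other single line, between 3 and 11 genes were called (3 without KO05, 5 without KO03, 11 without KO04, 7 without WT22 and 5 without WT23). Counts without KO02 are therefore given with the gene groups. KO02 was singled out on these same expression values, as the Tdg-/- line that lay among the Tdg+/+ lines. Calls made without it depend on leaving it out and are not separate support for a gene or list.

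The called genes differed in how far they rested on single lines. Tdg, Gm3055 and Tdg-ps2 were called with edgeR whichever line was left out, and Gm32687 lost its call only without KO05 (adjusted p = 0.0738). Gm4924, 1190007I07Rik and mt-Atp8 lost theirs without any 1 of the 6 lines other than KO02, with adjusted p up to 0.232, 0.224 and 0.222 in that order. Hal lost its call without KO03, KO04, KO05, WT22 or WT23 (up to 0.186), Tdg-ps without KO03, KO04, KO05, WT21 or WT23 (up to 0.175), and Pdcd5-ps without KO05 or any Tdg+/+ line (up to 0.086). The log2 fold changes of Gm4924, 1190007I07Rik and mt-Atp8 stayed between 0.99 and 1.13, 1.07 and 1.24, and -1.18 and -0.96.

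Most of the called genes lie on chromosome 10, as Tdg does. This chromosome held 7 of the 10 called genes, with Tdg and its copy Tdg-ps2 among them, and 647 of the genes tested. The other chromosomes held 3 called genes among 13279 tested. With chromosome 10 left out of the fit, a setting added after the data were seen, no gene passed with edgeR, although 2104 genes had an unadjusted p under 0.05. Leaving it out removes the smallest p-values, which makes the adjustment stricter for the remaining genes. This setting therefore cannot show that changes were confined to chromosome 10. The median log2 fold change of chromosome 10 was -0.05, against -0.01 over all genes, so the chromosome as a whole was little shifted. A window of 12 places on either side of Tdg was not set in advance. Among its 24 tested genes other than Tdg, 7 were nominally higher and 3 nominally lower, and 2 were called in each direction. Within 10 Mb of Tdg, of 219 tested genes other than Tdg, 2 were called higher and 2 lower. In the rest of the chromosome, of 427 tested genes, 1 was called higher and 1 lower. Over all genes, 9.13% were nominally higher and 6.79% nominally lower, and 0.0359% were called in each direction.

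**Figure D2:**
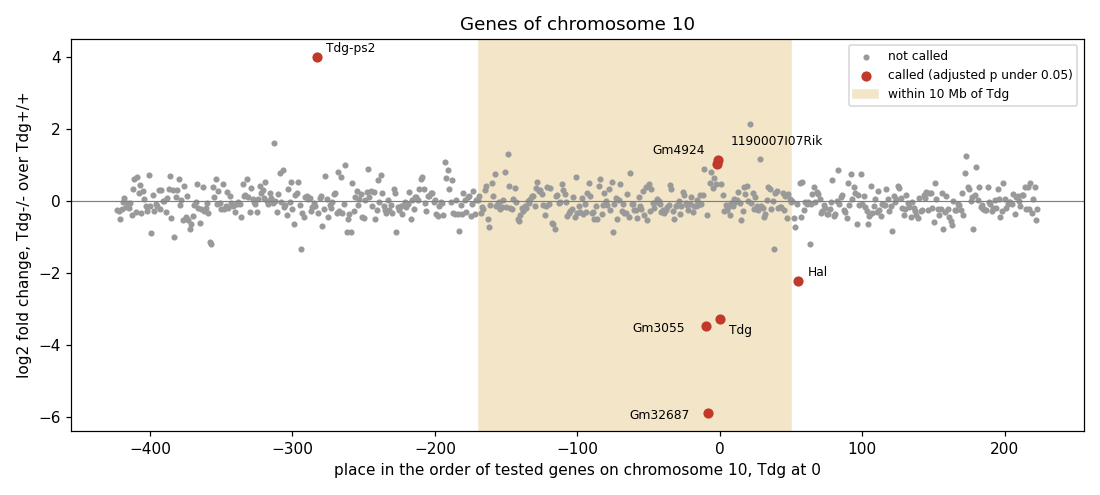
Log2 fold change (Tdg-/- over Tdg+/+) of each tested gene of chromosome 10 by its place in the gene order, with Tdg at 0 and the genes within 10 Mb shaded. Called genes are red, and Gm3055, Gm32687, Gm4924 and 1190007I07Rik lie within 10 places of Tdg.

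The 2 genes next to Tdg on one side rose. 1190007I07Rik, whose product is small and little studied, is the nearest tested gene. It stood at 19.9, 28.4, 26.1 and 25.1 CPM in KO02 to KO05, at 18.8, 17.3 and 14.5 CPM in HET11 to HET13, and at 11.7, 11.9 and 10.8 CPM in WT21 to WT23. No Tdg-/- line overlapped a Tdg+/+ line (log2 fold change 1.14 ± 0.152 SE, adjusted p = 0.0404 with edgeR). Gm4924, the next gene, was at 59.6, 78.0, 73.7 and 77.3 CPM in KO02 to KO05, at 49.1, 39.0 and 34.1 CPM in HET11 to HET13 and at 32.9, 34.1 and 39.7 CPM in WT21 to WT23. Its 2 outer genotypes did not overlap either (log2 fold change 1.05 ± 0.14 SE, adjusted p = 0.0404 with edgeR). Both lost their calls with the replicate block (adjusted p = 0.211 for 1190007I07Rik and 0.168 for Gm4924, edgeR).

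Gm32687 and Gm3055, in a cluster of zinc-finger genes beside Tdg, fell. Gm32687 had 0, 34, 7 and 9 reads in KO02 to KO05, 301, 286 and 454 reads in HET11 to HET13, and 608, 722 and 856 reads in WT21 to WT23 (log2 fold change -5.88 ± 0.611 SE, adjusted p = 0.00896 with edgeR; with the block, 0.111). Gm3055 was at 1.90, 2.40, 2.95 and 3.18 CPM in KO02 to KO05, at 14.5, 13.6 and 7.44 CPM in HET11 to HET13, and at 19.4, 31.2 and 36.8 CPM in WT21 to WT23 (log2 fold change -3.46 ± 0.254 SE, adjusted p = 0.000738 with edgeR; with the block, 0.00171). In both genes the 3 genotypes formed separate ranges. Their levels are uncertain, because the longest transcript of Gm32687 was 99.9% identical to one of Zfp433 over all its 2379 bases, and that of Gm3055 to one of Zfp781 over all its 4067 bases.

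These near-identical neighbours, named after their values were seen, had fold changes of the other sign that did not pass. Zfp433 was at 42.0 ± 8.52 CPM in Tdg-/- and 22.7 ± 6.18 CPM in Tdg+/+ lines (SD, n = 4 and 3; log2 fold change 0.91, adjusted p = 0.295 with edgeR). Zfp781 was at 30.7 ± 4.95 and 21.7 ± 6.63 CPM in these groups (0.52, adjusted p = 0.301 with edgeR). Summed over the copies, Gm32687 and Zfp433 stood at 42.3 ± 8.76 CPM in Tdg-/- and 44.4 ± 10.1 CPM in Tdg+/+ lines, a difference smaller than the SD of either group. Gm3055 and Zfp781 summed to 33.3 ± 5.33 CPM and 50.9 ± 15.4 CPM. With transcript lengths as an offset Gm3055 was not called (log2 fold change -1.65, adjusted p = 0.124 with edgeR).

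Hal, farther along chromosome 10 at 55 places from Tdg, encodes histidine ammonia-lyase, which starts the breakdown of histidine. It fell to 0.845, 1.24, 0.844 and 0.891 CPM in KO02 to KO05, against 2.80, 5.78 and 4.89 CPM in WT21 to WT23, and stood at 2.33, 2.22 and 2.70 CPM in HET11 to HET13. No other measured transcript resembled it. The log2 fold change was -2.21 ± 0.286 SE (edgeR, adjusted p = 0.0404), and with the block the adjusted p was 0.0981. Near it on the same chromosome, Ndufa12, a subunit gene of respiratory complex I named after its values were seen, missed the threshold at 32.3 ± 5.27 CPM in Tdg-/- and 74.9 ± 13.2 CPM in Tdg+/+ lines (log2 fold change -1.19, adjusted p = 0.0609 with edgeR). Without KO02 its adjusted p was 0.0102.

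**Figure D3:**
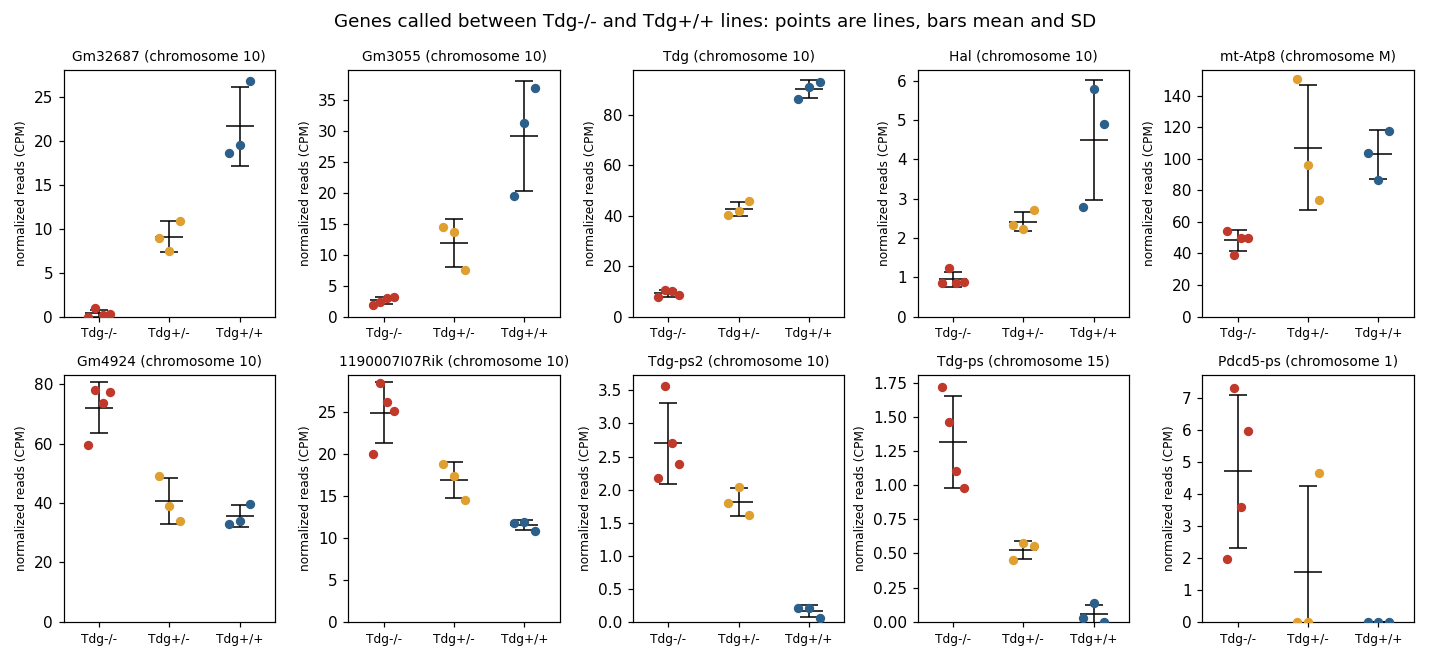
CPM of the 10 called genes in Tdg-/-, Tdg+/- and Tdg+/+ lines, 1 point per line, with the mean and SD of each genotype. For Tdg the 3 genotypes lie at 9.27, 42.7 and 90.2 CPM, and Pdcd5-ps has reads in every Tdg-/- line and in none of the Tdg+/+ lines.

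Since TDG acts on cytosines that precede guanine (CG), the starts of the called genes were examined for CG. Of the 10 called genes 7 matched a RefSeq promoter window (GRCm38.p6, 250 bases before to 50 after the start). The Tdg window held 26 CG, a number that 16.9% of 32817 windows reach. Gm4924 had 23 (21.5%), 1190007I07Rik 19 (28%), Gm3055 10 (43.4%), Gm32687 and Tdg-ps 8 each (48.6%) and Hal 7 (52.1%), where the median window has 7. The called genes thus ranged from a CG-rich to a median start, and the counts of the genes that rose overlapped those of the genes that fell. The windows of the rising neighbour of Tdg and of Hal are given with CG in capitals, from chr10:82623179-82623478 on the minus strand and chr10:93488518-93488817 on the plus strand:
1190007I07Rik: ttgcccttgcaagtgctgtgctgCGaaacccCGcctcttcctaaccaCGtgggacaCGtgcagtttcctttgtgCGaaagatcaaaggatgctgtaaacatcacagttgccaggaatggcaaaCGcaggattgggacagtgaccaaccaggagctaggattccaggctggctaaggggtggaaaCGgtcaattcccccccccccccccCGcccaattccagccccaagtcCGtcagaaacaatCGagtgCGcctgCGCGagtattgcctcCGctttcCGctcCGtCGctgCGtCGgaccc
Hal: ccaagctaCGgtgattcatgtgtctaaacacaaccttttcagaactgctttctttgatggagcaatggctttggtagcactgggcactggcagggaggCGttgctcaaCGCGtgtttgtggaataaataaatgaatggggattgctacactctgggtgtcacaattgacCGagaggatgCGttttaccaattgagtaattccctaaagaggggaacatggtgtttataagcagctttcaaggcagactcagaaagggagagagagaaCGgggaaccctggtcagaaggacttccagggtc

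A further pseudogene was called higher. Pdcd5-ps on chromosome 1, a copy of the apoptosis-related gene Pdcd5 inside the gene Kcnk2, was at 1.96, 7.30, 3.60 and 5.97 CPM in KO02 to KO05 and had 0 reads in each of WT21 to WT23. Of the Tdg+/- lines HET13 had 193 reads and the others 0, so the reads did not follow the number of Tdg alleles. Taking 3 reads per library as the floor of the Tdg+/+ lines, the lowest Tdg-/- line was at least 20.3-fold higher (adjusted p = 0.028 with edgeR; with the block, 0.0513). All its 381 bases are identical to part of Pdcd5, so reads there cannot be told apart, and its level and fold change are uncertain. Pdcd5 stood at 60.9 ± 8.14 CPM in Tdg-/- and 58.7 ± 4.56 CPM in Tdg+/+ lines (SD, n = 4 and 3). Pdcd5-ps and Pdcd5 summed to 65.6 ± 9.95 CPM and 58.7 ± 4.56 CPM in these groups. In the sum KO02, at 50.8 CPM, lay below every Tdg+/+ line, and the other Tdg-/- lines lay above them.

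Mitochondrially encoded genes code for subunits of the respiratory chain and ATP synthase, and mt-Atp8 passed the test. Of 13 tested, 1 fell, 0 rose, and 8 were nominally lower and 0 nominally higher, with a median log2 fold change of -0.64. Over all genes, 6.79% were nominally lower and 9.13% nominally higher. DESeq2 called 4 of the 13 lower, beside 0.330% of all genes. mt-Atp8, an ATP synthase subunit, fell to 54.5, 38.9, 49.7 and 49.9 CPM in KO02 to KO05, against 104, 86.6 and 118 CPM in WT21 to WT23 (log2 fold change -1.07 ± 0.147 SE, adjusted p = 0.0453 with edgeR; with the block, 0.111). It stood at 151, 95.9 and 74.1 CPM in HET11 to HET13, above, within and below the Tdg+/+ range. Its neighbour mt-Atp6 shares 43 bases with it, and reads there cannot be assigned to either gene alone.

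The other mitochondrial genes missed the threshold. mt-Atp6 was at 353, 307, 318 and 366 CPM in KO02 to KO05 and at 650.4, 499 and 604 CPM in WT21 to WT23 (log2 fold change -0.78, adjusted p = 0.126 with edgeR). The complex I subunit gene mt-Nd2 had a log2 fold change of -0.83 (adjusted p = 0.231), and mt-Co3, a subunit gene of cytochrome oxidase, had one of 0.30 (adjusted p = 0.386). The 13 genes summed to 11348, 11399.6, 12959 and 11092 CPM in KO02 to KO05 and to 8589, 15486 and 16469 CPM in WT21 to WT23. In the sum, WT21 thus lay below every Tdg-/- line, and the genotypes overlapped. Without KO02, 5 of the 13 genes were called lower, beside 10.5% of all genes.

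Genes of replication-dependent histones, which package newly made DNA and whose mRNAs end in a stem-loop instead of a poly(A) tail, had positive fold changes in 44 of 45 genes, and none passed the test. Of 45 tested, 0 were called, 23 were nominally higher and 0 nominally lower, and the median log2 fold change was 0.40. Over all genes, 9.13% were nominally higher and 6.79% nominally lower. The lines of the 2 genotypes did not overlap for 6 of the 45, all higher, where 4.47% of all genes were higher without overlap. DESeq2 called 2 of the 45 higher, H4c11 and H1f5, beside 0.373% of all genes. With the replicate block 13 of the 45 were nominally higher and 0 nominally lower, where 5.43% of all genes were higher and 5.80% lower. Median log2 fold changes were 0.30 for H1, 0.49 for H2A, 0.35 for H2B, 0.30 for H3 and 0.46 for H4 genes.

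H4c11, which encodes histone H4, stood at 191, 289, 269 and 239 CPM in KO02 to KO05 and at 177, 169 and 138 CPM in WT21 to WT23 (log2 fold change 0.64 ± 0.165 SE, adjusted p = 0.295 with edgeR, 0.0373 with DESeq2). H1f5, a linker histone gene, was at 571, 779, 815 and 756 CPM and at 527, 505 and 488 CPM in these lines (0.55 ± 0.144 SE, adjusted p = 0.295 with edgeR). KO02 was the lowest Tdg-/- line in both genes, yet lay above all Tdg+/+ lines. In the summed level of the 45 genes it did not, with 12789 CPM in KO02 and 17049.9, 16268 and 15184 CPM in KO03 to KO05, against 13895, 11429 and 10372 CPM in WT21 to WT23. Without KO02, 22 of the 45 genes were called higher and 0 lower, beside 11.7% and 10.5% of all genes. With transcript lengths as an offset the median was 0.25.

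Processed pseudogenes, a class examined after the values were seen, had mostly positive fold changes. Of 1023 tested, 3 rose, the copies of Tdg and Pdcd5, and 0 fell. Of the same 1023, 163 were nominally higher and 31 nominally lower, and 745 had a positive fold change (median log2 fold change 0.30). The nominal shares over all genes were 9.13% higher and 6.79% lower. Without KO02, 129 of the pseudogenes were called higher and 21 lower, beside 11.7% and 10.5% of all genes. In that fit the share called higher was thus near that of all genes, and the share called lower was below it. Protein-coding genes numbered 12770, of which 1098 were nominally higher and 906 nominally lower, with a median of -0.03. The pseudogenes summed to 15889, 22483, 19053 and 19705 CPM in KO02 to KO05 and to 14898, 16001 and 17918 CPM in WT21 to WT23, so KO02 lay within the Tdg+/+ range. Salmon can divide reads between a pseudogene and its parent, and the part this plays was not tested.

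**Figure D4:**
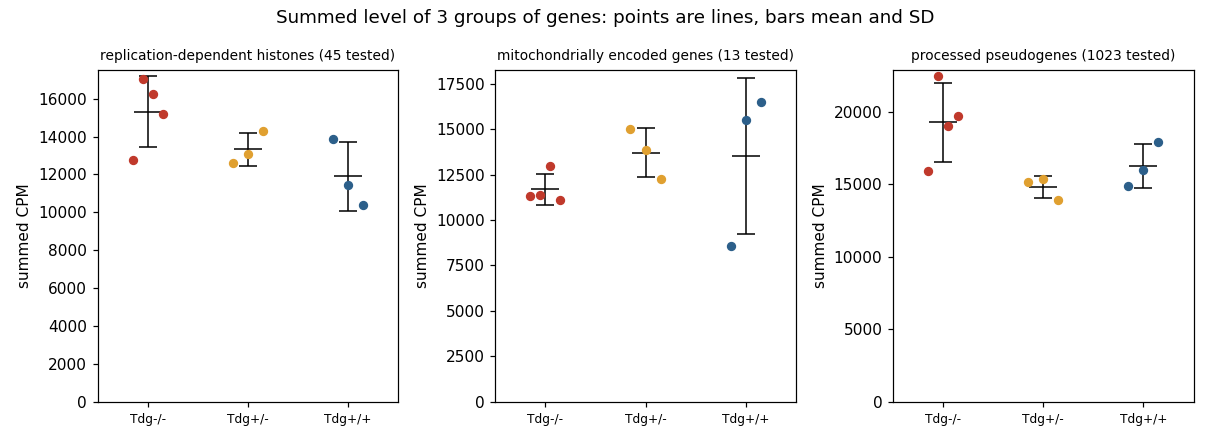
Summed CPM of replication-dependent histones, mitochondrially encoded genes and processed pseudogenes in Tdg-/-, Tdg+/- and Tdg+/+ lines, 1 point per line, with the mean and SD of each genotype. Among the histones KO03 to KO05 lie between 15184 and 17049.9 CPM, above all Tdg+/+ lines, and KO02 lies within their range.

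No other gene of the pathway in which TDG works passed the test with all 4 Tdg-/- lines. Of 13 genes of TET and DNMT enzymes and their helpers, 0 were called, and 1 was nominally higher and 2 nominally lower (median log2 fold change -0.21). Without KO02, 2 of the 13 were called higher and 3 lower. Over all genes, 9.13% were nominally higher and 6.79% nominally lower, and without KO02 11.7% were called higher and 10.5% lower. Tet1, the main TET enzyme of ESCs and a gene of chromosome 10, was at 114, 92.5, 102 and 87.3 CPM in KO02 to KO05 and at 122, 138 and 141 CPM in WT21 to WT23 (log2 fold change -0.41, adjusted p = 0.295 with edgeR). The genotypes did not overlap, and without KO02 Tet1 was called (-0.48, adjusted p = 0.0158 with edgeR). Usp7, a deubiquitinase that stabilizes DNMT1, had a log2 fold change of -0.48 (adjusted p = 0.295) and lies on chromosome 16, whose genes were raised in WT21.

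Of the 10 other DNA glycosylase genes 0 were called, and 4 were nominally higher and 0 nominally lower (median log2 fold change 0.26). Mpg, which removes alkylated purines, stood at 12.3, 19.5, 15.5 and 19.7 CPM in KO02 to KO05 and at 12, 11.6 and 10.3 CPM in WT21 to WT23 (log2 fold change 0.59, adjusted p = 0.295 with edgeR), and it lies on chromosome 11. Ogg1, which removes oxidized guanine, had a log2 fold change of 0.34 (adjusted p = 0.296). Mbd4, the other glycosylase for thymine paired with guanine, had one of 0.05 ± 0.104 SE (adjusted p = 0.787 with edgeR). Without KO02, 3 of the 10 were called higher. Without WT21 and with the replicate block, 1 of the 10 was nominally higher in each fit, beside 7.84% and 5.43% of all genes. Of 16 later enzymes of base excision repair 0 were called and 1, Pcna, the sliding clamp of DNA replication, was nominally higher (0.44, adjusted p = 0.298), and without KO02 1 was called higher and 1 lower. Among 17 partners of TDG, 0 were called and 3 were nominally lower, led by Crebbp, the gene of CBP on chromosome 16 (-0.53, adjusted p = 0.295), and Carm1, an arginine methyltransferase (-0.50, adjusted p = 0.295). Without KO02, 1 of these partners was called higher and 5 lower. For these lists the shares over all genes were 9.13% nominally higher and 6.79% nominally lower. Without KO02 they were 11.7% called higher and 10.5% called lower.

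Genes of naive pluripotency stayed expressed, and 0 of 23 were called, with 2 nominally higher and 4 nominally lower (median log2 fold change -0.19). Pou5f1, which encodes the core factor OCT4, was at 1142, 1892, 1564 and 1607 CPM in KO02 to KO05 and at 1234, 1204 and 1015 CPM in WT21 to WT23 (log2 fold change 0.46 ± 0.174 SE, adjusted p = 0.296 with edgeR). KO02 lay within the Tdg+/+ range and the other Tdg-/- lines above it. Without KO02, 2 of these genes were called higher and 6 lower. Esrrb, a nuclear receptor that sustains naive cells, was then among the lower ones (-0.55, adjusted p = 0.0103 with edgeR, against -0.37 and 0.318 with KO02). Genes of other early fates had no call with edgeR in 4 lists (16 genes of the primed state and ectoderm, 5 of mesoderm, 14 of primitive endoderm and 10 of trophoblast). Without KO02, 3 genes of the primed state and ectoderm, 2 of primitive endoderm and 2 of trophoblast were called lower, and 0 were called higher. Map2, a microtubule protein of neurons, was the exception with DESeq2 (log2 fold change -0.97, adjusted p = 0.295 with edgeR and 0.00381 with DESeq2). Beside these counts, 9.13% of all genes were nominally higher and 6.79% nominally lower. Without KO02, 11.7% of all genes were called higher and 10.5% lower.

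The series belongs to a study of stress hormone receptor activation, and the receptor genes given here did not pass the test. Nr3c1, which encodes the glucocorticoid receptor, was at 11, 8.49, 9.59 and 8.76 CPM in KO02 to KO05 and at 9.62, 9.56 and 11.4 CPM in WT21 to WT23. The groups overlapped (log2 fold change -0.08 ± 0.147 SE, adjusted p = 0.752 with edgeR). The mineralocorticoid receptor gene Nr3c2 had 16 to 30 reads in Tdg-/- lines and 20 to 34 in Tdg+/+ lines (-0.32, adjusted p = 0.601). Pgr, the progesterone receptor gene, had 9 to 27 and 17 to 29 reads in these groups (-0.48, adjusted p = 0.545). At so few reads a moderate difference in Nr3c2 and Pgr was not detectable. Too few reads to test fell on the estrogen receptor genes, at most 3 on Esr1 and 4 on Esr2 in any of the 7 lines.

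Of 24 genes that glucocorticoids induce in other tissues 0 were called, and 1 was nominally higher and 3 nominally lower (median log2 fold change -0.26). Angptl4, a lipase inhibitor, had a log2 fold change of 0.39 (adjusted p = 0.295), and Cdkn1a, the cell cycle inhibitor p21, one of -0.34 (adjusted p = 0.295). Without KO02, 1 of the 24 was called higher and 6 lower. The classic target Fkbp5, a chaperone of the receptor, was then lower (-0.39, adjusted p = 0.0336 with edgeR, against -0.27 and 0.363 with KO02). Of 32 androgen-induced genes 0 were called, and 1 was nominally higher and 1 nominally lower (median -0.04). Without KO02, 1 was called higher and 7 lower. These shares stand beside 11.7% of all genes called higher and 10.5% called lower in that fit. With all 7 lines, 9.13% of genes were nominally higher and 6.79% nominally lower. Of 16 genes of receptors, chaperones and cofactors 0 were called and 1 was nominally lower, Nrip1, a corepressor on chromosome 16 (-0.48, adjusted p = 0.295), and without KO02 0 were called higher and 4 lower.

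**Figure D5:**
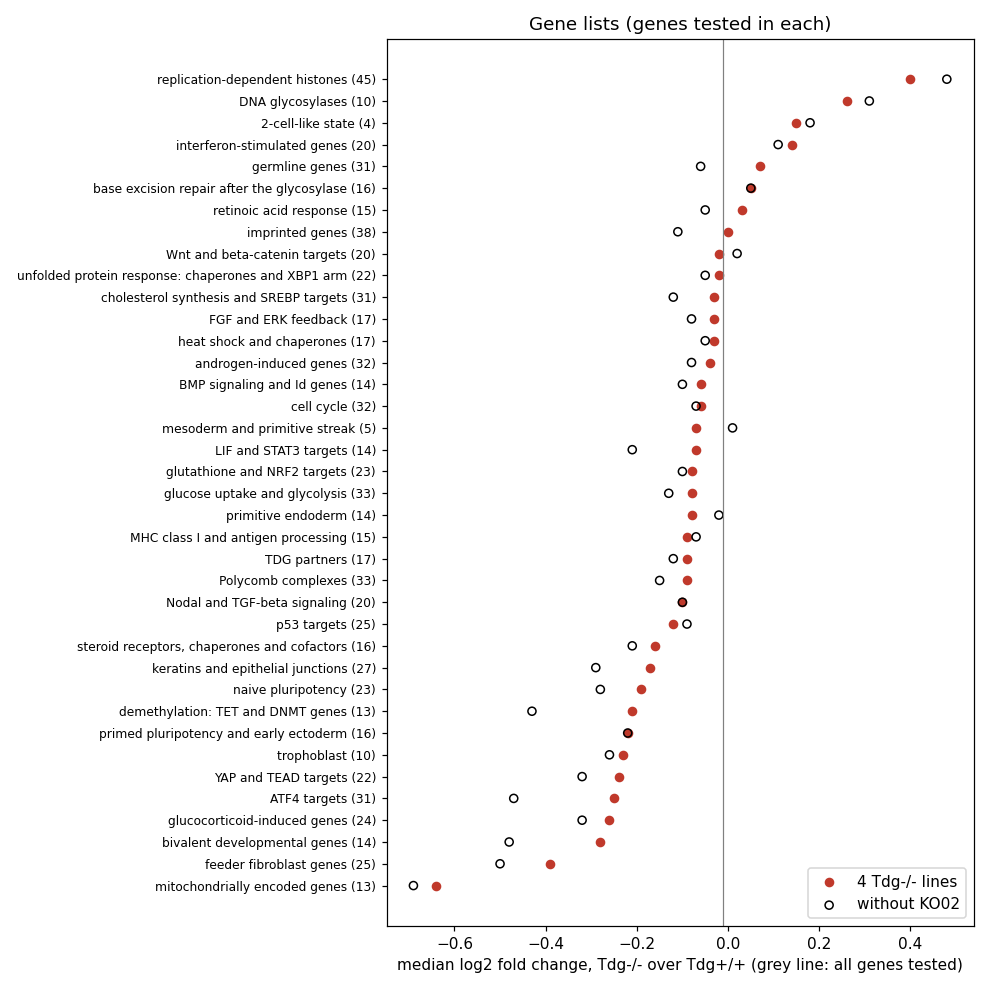
Median log2 fold change (Tdg-/- over Tdg+/+) of the tested genes of each of 38 lists, with all 4 Tdg-/- lines (red) and without KO02 (open circles). Replication-dependent histones lie highest at 0.40 and mitochondrially encoded genes lowest at -0.64, and the median over all genes is -0.01.

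Among the other lists no gene passed with edgeR. Of 38 lists, 1 had a called member, the mitochondrial one, and without KO02 35 had. ATF4 targets, which answer amino acid shortage, had a median log2 fold change of -0.25 over 31 genes. With all 7 lines 1 of them was nominally higher and 1 nominally lower, and without KO02 1 was called higher and 9 lower. Ero1a, an oxidase of the endoplasmic reticulum among them, was at 91.6, 44.2, 58.0 and 50.9 CPM in KO02 to KO05 and at 100.1, 81.0 and 85.7 CPM in WT21 to WT23 (adjusted p = 0.302 with edgeR, 0.0111 without KO02). KO02 lay within the Tdg+/+ range. Of 23 glutathione and NRF2 genes, 4 were nominally higher and 5 nominally lower, and without KO02 7 were called higher and 5 lower. Gclm, the modifier subunit of the enzyme that starts glutathione synthesis, was at 532, 769, 734 and 899 CPM in KO02 to KO05 and at 506, 429 and 415 CPM in WT21 to WT23 (log2 fold change 0.73, adjusted p = 0.295 with edgeR, 0.0181 with DESeq2). Of 32 cell cycle genes, 1 was nominally higher and 4 nominally lower, and without KO02 3 were called higher and 5 lower. DESeq2 called 1 of them lower, the proliferation marker Mki67 (-0.78, adjusted p = 0.0325 with DESeq2, 0.295 with edgeR). Shares over all genes were 9.13% nominally higher, 6.79% nominally lower and, without KO02, 11.7% called higher and 10.5% called lower. DESeq2 called 0.373% of all genes higher and 0.330% lower.

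Imprinted genes, which are expressed from 1 parental allele under control of DNA methylation, had no call. Of 38 tested, 6 were nominally higher and 6 nominally lower, and with the replicate block 4 and 8. Over all genes these shares were 9.13% and 6.79%, and 5.43% and 5.80% with the block. Without KO02, 4 of the 38 were called higher and 7 lower, beside 11.7% and 10.5% of all genes. Nnat, a brain protein gene expressed from the paternal allele, stood at 0.483, 2.26, 1.41 and 3.27 CPM in KO02 to KO05 and at 0.307, 0.648 and 0.313 CPM in WT21 to WT23 (log2 fold change 2.14, adjusted p = 0.295 with edgeR, 0.0375 with DESeq2). KO02 lay within the Tdg+/+ range. Interferon-stimulated genes numbered 20, with 4 nominally higher and 0 nominally lower and 0 called, and without KO02 3 were called higher and 1 lower. Xaf1, an apoptosis-promoting member on chromosome 11, had a log2 fold change of 0.56 (adjusted p = 0.295). Of 25 feeder fibroblast genes 0 were called and 1 had a positive fold change, with a median of -0.39, and with the replicate block the median was -0.09. Without KO02, 1 was called lower. Their summed level was 281 to 479 CPM in Tdg-/- and 399 to 598 CPM in Tdg+/+ lines. Most of it came from the single gene Fn1, at 244 to 389 CPM and 349 to 480 CPM in these groups. The part of the feeder genes in the other differences was not tested.

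Whole chromosomes could not be tested at 0.05, since the smallest two-sided exact permutation p for 4 against 3 lines is 0.0571. Chromosome 16 had 11 nominally higher and 67 nominally lower genes of 434 and a median log2 fold change of -0.13, which was 0.02 without WT21. On chromosome 11, 161 genes were nominally higher and 33 nominally lower of 1105 (median 0.06). The nominal shares over all genes were 9.13% higher and 6.79% lower. Without the genes of chromosomes 11 and 16, 5 genes were called higher and 5 lower.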

How the data were processed

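Per the labels and methods, the authors assigned stranded single-end reads to GRCm39 transcripts (Salmon 0.8.1). They deposited, per line, an estimated count (expected count, not normalized) and a TPM value for each of 116357 transcripts. The deposited TPM served only as a side value. Whether strand was used in counting is not given in the sources used here. Estimated counts were summed per gene through a GRCm38 annotation (98.97% of transcripts paired by identifier) and rounded. Unpaired transcripts (0.473% to 0.499% of reads) were left out. Because the builds differ, the annotation gave names, chromosomes and gene order only. The 7 lines held 31095285 to 39724724 reads in genes. Lines of a genotype differed by more than sampling noise (chi-square per gene 18.95 to 142.4), so none repeats the library of another. Each line was counted as a sample, although this check cannot show that lines are independent.

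Genes reaching 20 reads in any of the 7 lines were tested with edgeR 4.0.16 (quasi-likelihood, TMM, R 4.3.3) and Benjamini-Hochberg adjustment at 0.05, where the common biological coefficient of variation was 0.208. DESeq2 1.42.0, surrogate variables of sva 3.50.0, other filters and scalings, and each line left out were alternatives. CPM are TMM-normalized. In simulated libraries edgeR recovered 67.3% of genes simulated with a log2 change of 1 and 94.9% of those with 2, with 11 false calls among 13712 genes. The simulation drew each gene independently, without differences between lines that many genes share. Its recovery therefore need not hold for these lines. Lines with the same replicate number deviated together (correlations 0.168, 0.14 and 0.143, all above those of other numbers), and the pairing rests on this, since the labels tie no number to a litter or day. KO05 has no partner, so it adds nothing to the blocked comparison.

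The lines compared, the 38 gene lists and the rules were chosen with earlier results of these data known. Named genes were Tdg, up to 15 called genes and 3 called pseudogenes or unnamed genes in each direction with a mean of at least 1 CPM and groups that do not overlap, the called members of each list or the 2 with the smallest p, and steroid receptor genes, of which 1 result is not reported here. The called genes Gm4924 and Tdg-ps fell outside the rule and were added after their values were seen, as were further list members given as examples. Where 2 gene identifiers shared a symbol, the one with more reads was used.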

Additional observations from a re-analysis of the deposited data

Results flagged for a closer look

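Each named gene and each chromosome, 106 in all, was checked for 1 Tdg-/- line far from the other 3, as the gap to the nearest line divided by the range of the 4 lines, with a critical value of 0.83. This singled out 13 (12.3%). Chance gives about 1 in 20 for values that vary freely, which does not hold for the chromosome medians, since most lines lie at or near 0 there after centring on the middle of the 7 lines. Among genes, KO02 was apart for Sat1 (0.989), Gstm1 (0.875) and Smad3 (0.873), and KO03 for Hal (0.860). Sat1, an enzyme of polyamine breakdown, was at 59.1 CPM in KO02 and 93.7, 94.0 and 93.5 CPM in KO03 to KO05, against 72.8, 56.9 and 58.7 CPM in WT21 to WT23. The glutathione transferase gene Gstm1 was at 34.1 CPM in KO02 and 25.1, 24.6 and 25.7 CPM in KO03 to KO05, against 48.7, 39.9 and 36.3 CPM in WT21 to WT23.

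Among chromosome medians, KO05 was apart on chromosomes 2 (0.963), 3 (1.0), 4 (1.0), 7 (0.83) and 17 (1.0), KO03 on 6 (1.0), 12 (1.0) and 18 (0.928), and KO04 on 13 (1.0). These log2 differences lay between -0.05 and 0.02, so the lines set apart differed little.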

How the results depend on the processing

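Tdg was called in all alternatives run with its chromosome in the fit, at log2 fold changes of -3.43 to -2.36 and adjusted p up to 0.00171. The count of called genes was 98 with DESeq2 (52 higher, 46 lower), 19 with no filter on low counts (9 and 10), 24 with 3 surrogate variables (15 and 9, with 2 residual degrees of freedom), 5 with the replicate block (0 and 5), and 0 with chromosome 10 left out (0 and 0). Transcript lengths as an offset left 3 higher. With 1 line left out it ranged from 3 to 3077 (1 to 1623 higher, 2 to 1454 lower), the highest without KO02. Without WT21 and KO02, a fit chosen after seeing the data, it was 4586 (2366 and 2220). Beyond the calls given with the results, the replicate block changed no call of a named gene. Signs of named genes turned, none of them called, with 3 surrogate variables for Fen1 (-0.02), Pou5f1 (-0.01), Dppa4 (-0.15), T (-1.32), Aldh1a2 (0.00), Ebp (-0.08), Nr3c1 (0.20), Nr3c2 (0.01) and Pgr (0.31). With the length offset they turned for Ppp1r9a (0.08) and Nr3c2 (0.01), and without WT23 for Nr3c1 (0.00, with a range of -0.16 to 0.00 over single lines left out). Over all named genes and alternatives, a call was lost 55 times and gained 112 times, a sign turned 12 times, and 1319 values kept sign and call. The causes were not tested. Pseudogenes and near-identical copies are limited by how reads are divided, and genes with few reads by depth.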

Other observations

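Pseudogenes of ribosomal proteins differed between lines of the same genotype. Rpl36a-ps2 had 1832 and 2305 reads in WT22 and WT23 and 0 in WT21, in all Tdg-/- and in all Tdg+/- lines. Rps16-ps2 had 1513 reads in WT23 and 0 in the other 9 lines.

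In the Tdg+/- lines, H2-T22, of the MHC class I family and with close paralogs, was at 17.3, 17.2 and 16.3 CPM, against 6.18, 6.51 and 6.43 CPM in WT21 to WT23. In the Tdg-/- lines it was at 6.97, 10.6, 8.13 and 12.8 CPM, against the same Tdg+/+ lines (adjusted p = 0.295 from edgeR). The Tdg-/- values lay between those of the other genotypes, so the order did not follow the number of wild-type alleles. Grb10, an imprinted gene of an adaptor of insulin signaling chosen after its values were seen, was at 49.3, 13.4, 14.2 and 10.5 CPM in KO02 to KO05, against 109, 21.6 and 45.5 CPM in WT21 to WT23 (adjusted p = 0.302 from edgeR, 0.0232 without KO02).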
